A study of Mus musculus with 2 samples.

Results

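Ccl2, Ccl7, Ccl8, Ccl12, Ccl24, Ccl5 and Ccr2 were followed in GR1+ cells of 4T1 tumors, 7 of the 32285 genes listed in the count matrices, picked by name as 6 chemokine ligands and 1 receptor. 4T1 is a BALB/c mouse mammary carcinoma line. The 4T1P tumors grew from its parental, non-responding form and the 4T1M tumors from a mutagenized form that responds to anti-PD1, and cells were taken at baseline, with no anti-PD1 given, per the study's methods. GR1+ cells were isolated from tumors of BALB/c mice by positive selection with magnetic beads. The sample records give 5 mice pooled per condition, aged 6 to 8 weeks, and the study's methods give a higher age range at tumor injection. From each pool 1 droplet library (10x Genomics) was made. The GR1 antibody binds both Ly6G and Ly6C, so this selection collects granulocytic and monocytic cells together. With 1 library per condition no spread between animals could be estimated and no test was run. All intervals below are at 95% and cover counting error only.

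Chemokines are small secreted proteins that direct the migration of leukocytes, and the CC family is named for a pair of adjacent cysteines near the start of the mature protein. Ccl2, Ccl7, Ccl8 and Ccl12 encode monocyte chemoattractant proteins. CCR2, encoded by Ccr2, is the receptor of CCL2, CCL7 and CCL12 and is needed for classical monocytes to leave the bone marrow and enter tumors, where they become macrophages. CCL5 attracts T cells and monocytes, whereas CCL24, or eotaxin-2, acts on CCR3 and is best known for attracting eosinophils.

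The coding sequence around the cysteine pair shows which part the 6 ligands share and how far they otherwise differ, which bears on whether reads of one can be counted for another. The pair lies in exon 2 of 3 in every ligand, and each window of 60 bases begins in exon 1. The windows are printed 5′ to 3′ on the coding strand, with the codons of the pair in capitals, from the GENCODE annotation of GRCm38.
Ccl2: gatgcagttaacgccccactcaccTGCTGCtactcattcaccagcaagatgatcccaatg
Ccl7: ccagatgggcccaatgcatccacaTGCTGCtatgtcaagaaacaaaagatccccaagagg
Ccl8: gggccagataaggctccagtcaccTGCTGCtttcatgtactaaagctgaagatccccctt
Ccl12: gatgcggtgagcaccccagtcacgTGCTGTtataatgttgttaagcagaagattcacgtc
Ccl24: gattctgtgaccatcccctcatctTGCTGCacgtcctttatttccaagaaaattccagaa
Ccl5: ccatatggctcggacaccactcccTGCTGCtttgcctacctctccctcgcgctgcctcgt

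Aligned at the pair without gaps, Ccl8 and Ccl12 had the same base at 38 of 60 positions, Ccl2 and Ccl12 at 35, Ccl2 and Ccl8 at 35, and Ccl12 and Ccl5 at 16. Over whole transcripts the longest exact stretch that a ligand shared with another ligand examined was 23 bases, between Ccl2 and Ccl7. Ccl2, Ccl7, Ccl12 and Ccl8 lie in this order on the plus strand of chromosome 11, within 81.2 kb, with Ccl11 between Ccl7 and Ccl12 (chr11:82035571-82116799, GRCm38). The pair codons are at chr11:82036506-82036511 in Ccl2, chr11:82046538-82046543 in Ccl7, chr11:82102634-82102639 in Ccl12 and chr11:82116056-82116061 in Ccl8. Ccl5 lies on the minus strand of chromosome 11 (chr11:83525778-83530518, pair at chr11:83529242-83529247) and Ccl24 on the minus strand of chromosome 5 (chr5:135569937-135573049, pair at chr5:135572665-135572670). Ccr2 lies on the plus strand of chromosome 9 (chr9:124101950-124113557). Gm17268 is annotated on the opposite strand over Ccl2 and had 0 UMIs in the macrophages of both libraries.

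Barcodes were kept if 500 to 5000 genes were seen in them and no more than 10% of their UMIs were mitochondrial, which left 1726 of 2947 in 4T1P and 3461 of 5004 in 4T1M, and 3 retained barcodes occurred in both libraries. Cells with S100a8 and S100a9 under 1.5% of UMIs and with C1qa, C1qb, C1qc, Apoe, Csf1r, Cd68 and Fn1 at 0.3% or more were taken as macrophages, 798 in 4T1P and 976 in 4T1M. Cells with S100a8 and S100a9 at 1.5% or more and with C1qa, C1qb, C1qc and Apoe under 0.5% were taken as neutrophils, 612 and 1686. Macrophages held 8767210 and 9343315 UMIs, with medians of 9727 and 9213.5 per cell, and neutrophils had medians of 3054.5 and 2957.5. Levels are in CPM, the UMIs of a gene in every 1000000 UMIs of the class and library.

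The label of the macrophages was checked with markers that the rule did not use. Of 7 such genes, Mertk, Adgre1, Ms4a7, Fcgr1, Mrc1 and Lyz2 were above their neutrophil level in both libraries, for example Mrc1, the mannose receptor, at 669 CPM in 4T1P macrophages and 9.19 CPM in neutrophils. Cd14 was higher in neutrophils than in macrophages in both, at 3084 and 1288 CPM in 4T1P. Ly6c2, which marks classical monocytes and carries part of the GR1 antigen, was at 3.76 CPM in 4T1P macrophages and 28.0 CPM in 4T1M macrophages. All 4 genes listed for basophils and mast cells were at 0 in macrophages, and the 8 T and NK cell genes summed to 3.76 and 5.57 CPM. Other lists were less clean. The monocyte genes summed to 201 and 400.5 CPM. The neutrophil genes summed to 115 and 119 CPM, with a UMI in 35.2% and 42.8% of macrophages. Endothelial genes summed to 29.5 and 42.0 CPM and tumor epithelial genes to 10.8 and 5.99 CPM. The B cell, dendritic cell, fibroblast and eosinophil lists lay between 1.03 and 10.6 CPM.

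In both libraries the 7 genes were mainly counted in macrophages. All 7 were higher in macrophages than in neutrophils by a log2 ratio of 1 or more, where 54% of 11750 genes with enough UMIs were so in 4T1P and 51.1% of 12173 in 4T1M, so that being higher is in itself common. In 4T1P the log2 ratios ran from 3.14 for Ccl2 (2.96 to 3.33) to 6.29 for Ccr2 (5.59 to 7.10), and in 4T1M from 2.21 for Ccl2 (2.12 to 2.30) to 4.91 for Ccl8 (4.52 to 5.34). Ccl2 was thus the member with the smallest difference between the classes in each library.

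**Figure D1:**
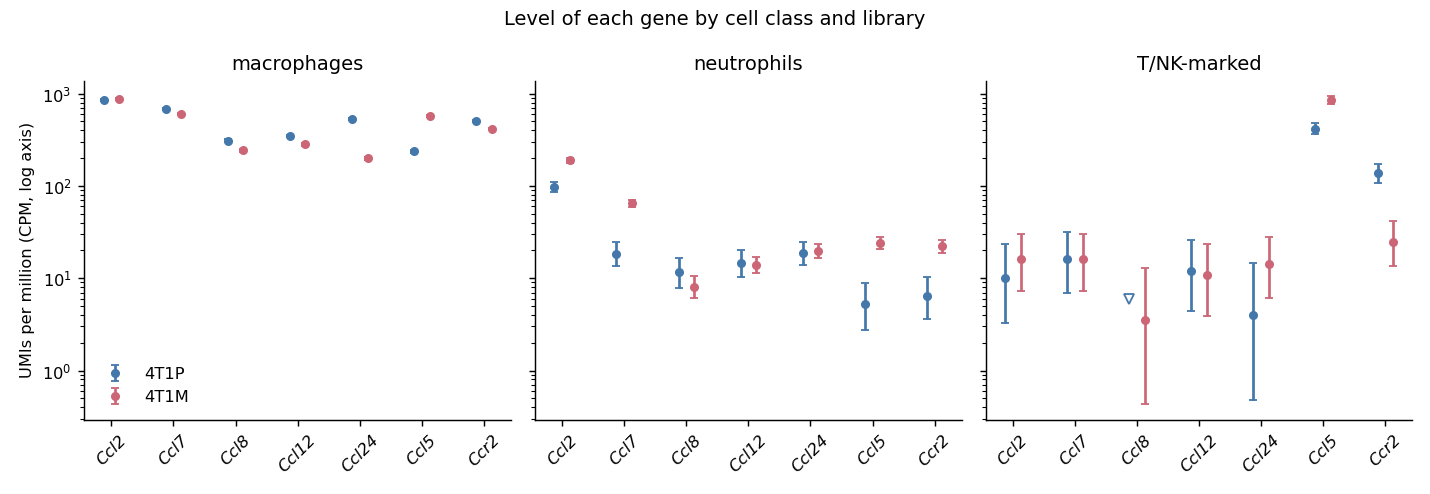
Level of each gene (CPM, log axis) in macrophages, neutrophils and T/NK-marked cells of the 4T1P library (blue) and the 4T1M library (red), with 95% Poisson intervals that cover counting error only. The open triangle marks the level that a count of 0 allows (3 UMIs). In macrophages the levels lie between 198 and 873 CPM, whereas in neutrophils only Ccl2 of 4T1M is above 100 CPM, and in T/NK-marked cells Ccl5 is the highest point in both libraries.

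Ccl2 was counted at 859 CPM in 4T1P macrophages (840 to 879) and 873 CPM in 4T1M macrophages (854 to 892). Below them came the 11 and 53 mixed barcodes with both macrophage and neutrophil genes (578 and 336 CPM) and the barcodes left over by every rule (574 and 410 CPM). The log2 ratio of the left-over over the mixed barcodes was -0.01 in 4T1P (-0.36 to 0.36), where the order cannot be told at this depth, and 0.29 in 4T1M (0.03 to 0.55). Neutrophils followed with 97.5 CPM (85.6 to 111) and 189 CPM (178 to 199). In cells marked by T/NK or B cell genes Ccl2 was at most 18.5 CPM.

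Ccl7 was at 675 CPM in 4T1P macrophages (658 to 692) and 606 CPM in 4T1M macrophages (590 to 622). In 4T1M the mixed barcodes had 591 CPM (520 to 668), and the log2 ratio of macrophages over them was 0.04 (-0.15 to 0.22). Ccl7 was at 18.4 CPM in 4T1P neutrophils and 64.6 CPM in 4T1M neutrophils. Of the 425 UMIs in the latter, 124 came from 1 cell and 81.9% from the 10 highest cells.

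Ccl8 was at 310 and 243 CPM in macrophages and at 11.6 and 8.05 CPM in neutrophils, in 4T1P and 4T1M respectively. Ccl12, which has no direct counterpart in human, was at 348 and 281 CPM in macrophages and at 14.8 and 14.0 CPM in neutrophils. For both genes the neutrophil intervals of the libraries overlapped.

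Ccl24 was at 529 CPM in 4T1P macrophages (514 to 545) and 198 CPM in 4T1M macrophages (189 to 207). In neutrophils it was at 18.8 and 19.6 CPM, with overlapping intervals. In the barcodes left over by every rule it was at 191 and 265 CPM, above the macrophage level of 4T1M, and 81.4% of the 570 UMIs there came from 10 barcodes. Macrophages were the highest class for Ccl24 in 4T1P only.

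By CPM, Ccl5 was highest in T/NK-marked cells in both libraries, although few of these cells held it. T/NK-marked cells had 416 CPM in 4T1P (362 to 477, 74 cells) and 851 CPM in 4T1M (776 to 931, 97 cells). Macrophages had 236 CPM (226 to 247) and 571 CPM (556 to 587), and neutrophils 5.19 and 24.2 CPM. In 4T1P the left-over barcodes had 247 CPM (215 to 282), and the log2 ratio of macrophages over them was -0.06 (-0.26 to 0.15). Of the 219 UMIs in these barcodes, 142 came from 1 barcode and 95.9% from the 10 highest.

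Ccr2 was at 502 CPM in 4T1P macrophages (487 to 517) and 414 CPM in 4T1M macrophages (401 to 428). The mixed barcodes of 4T1M had 451 CPM (389 to 519), with a log2 ratio of macrophages over them of -0.12 (-0.33 to 0.10). Neutrophils had 6.39 and 22.3 CPM. T/NK-marked cells had 138 CPM in 4T1P, where 10 cells held all 69 UMIs, and 25.0 CPM in 4T1M.

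To compare cells at 1 depth, 1000 UMIs were drawn from each cell, and 26 and 37 macrophages and 0 and 4 neutrophils with fewer were set aside. Ccl2 was found in 34.5% of 4T1P macrophages (31.1% to 37.9%) and 28.8% of 4T1M macrophages (25.9% to 31.8%). Neutrophils had 6.05% and 4.58%. Without thinning the shares of macrophages were 63.2% and 55.2%. Ccr2 was found in 30.7% and 26.8% of thinned macrophages and in 1.14% and 0.832% of thinned neutrophils. Every member had a higher share in macrophages than in neutrophils at this depth, the smallest gap being for Ccl8 in 4T1M, at 7.77% (6.14% to 9.68%) against 1.25% (0.774% to 1.90%).

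As a check of free RNA, the neutrophil CPM was set against the macrophage CPM of the same gene. Of the 7 macrophage markers, Mrc1, Mertk, Adgre1, Ms4a7 and Fcgr1 stood at 0% to 4.70% in 4T1P and 2.002% to 8.16% in 4T1M, Lyz2 at 16.5% and 18.9%, and Cd14 at 240% and 229%. Ccl2 stood at 11.3% and 21.6%, below Lyz2 in 4T1P and above it in 4T1M. The 10 highest neutrophils held 52.9% of the Ccl2 UMIs of this class in 4T1P and 58.6% in 4T1M, where 1 cell held 158. Ccl7 stood at 2.72% and 10.7% and Ccl24 at 3.55% and 9.90%, while Ccl8, Ccl12, Ccl5 and Ccr2 lay between 1.27% and 5.39%. The part of free macrophage RNA in these neutrophil counts was not tested.

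The comparison of the libraries asked how the 7 genes differ between macrophages of non-responding and responding tumors. Ccl24 was 2.67-fold lower in 4T1M and Ccl5 was 2.42-fold higher, while Ccl2 was at nearly the same level in both. Ccl7, Ccl8, Ccl12 and Ccr2 were lower in 4T1M by 1.11-fold to 1.28-fold. By a log2 ratio of 1 or more, 1 member was higher and 1 lower, where 3.35% of 12352 genes with at least 10 UMIs were higher and 3.24% lower, and the other 5 lay between. The median over the 7 genes was -0.28, beside -0.03 over all genes.

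**Figure D2:**
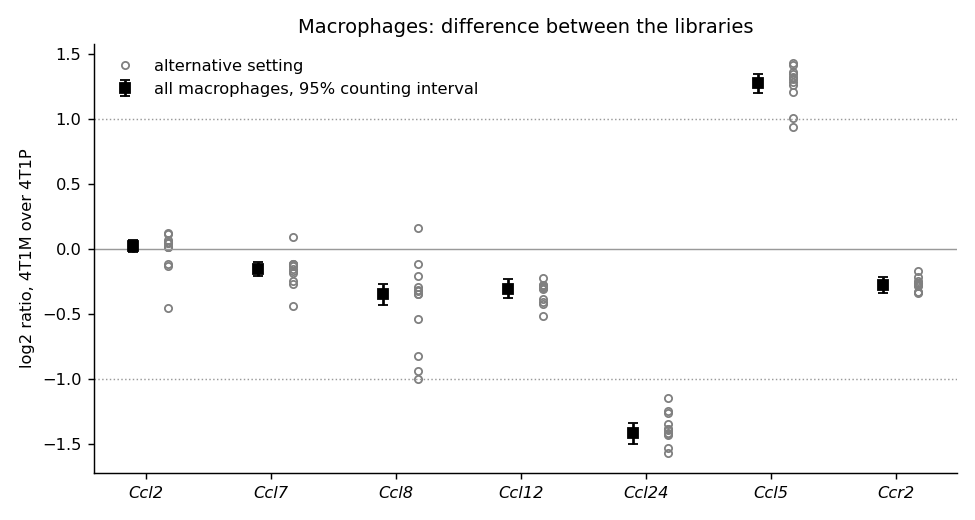
Log2 ratio of 4T1M over 4T1P in macrophages for each gene, with black squares for all macrophages and their 95% counting interval and open circles for the 12 alternative settings. Dotted lines mark a log2 ratio of 1 in either direction. Every setting puts Ccl24 between -1.57 and -1.14 and Ccl5 between 0.94 and 1.43, whereas the circles of Ccl2, Ccl7 and Ccl8 fall on both sides of 0.

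Ccl24 had 4640 UMIs in 4T1P macrophages and 1850 in 4T1M macrophages, a log2 ratio of -1.42 (-1.50 to -1.34). Of 1531 genes with at least 100 CPM in macrophages of a library, 1 had a lower ratio. That gene was F13a1, the A subunit of coagulation factor XIII, at 433 and 134 CPM (-1.69). The share of thinned macrophages with Ccl24 was 22.8% (19.9% to 25.9%) in 4T1P and 14.0% (11.8% to 16.3%) in 4T1M. The highest cell held 259 UMIs in 4T1P and 67 in 4T1M. Without the 10 cells that held the most Ccl24 in each library the log2 ratio was -1.26. In the left-over barcodes the log2 ratio of Ccl24 had the other sign, at 0.47 (0.22 to 0.72). The 10 highest barcodes held 92.9% of its UMIs there in 4T1P and 81.4% in 4T1M.

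Ccl5 had 2072 UMIs in 4T1P macrophages and 5337 in 4T1M macrophages, a log2 ratio of 1.27 (1.1997 to 1.35). Of the 1531 genes, 6 had a higher ratio. The share of thinned macrophages with Ccl5 was 12.0% (9.83% to 14.6%) in 4T1P and 21.3% (18.7% to 24.1%) in 4T1M. In T/NK-marked cells the log2 ratio was 1.03 (0.79 to 1.27), from 208 and 477 UMIs that were held by 10 and 21 cells. In the left-over barcodes it had the other sign, at -0.33 (-0.57 to -0.09), from 247 and 196 CPM. There the 10 highest barcodes held 95.9% and 70.4% of the Ccl5 UMIs. T and NK cell genes summed to 3.76 CPM in 4T1P macrophages and 5.57 CPM in 4T1M macrophages, and without macrophages that held any UMI of 9 T/NK and B cell genes the log2 ratio of Ccl5 was 1.21.

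Ccl2 had a log2 ratio of 0.02 (-0.02 to 0.07), an interval that holds 0 and excludes a difference of 0.1 in either direction for counting error. Its sign nevertheless depended on which macrophages were summed: among those with markers at 1% or more of UMIs the ratio was -0.46. Among macrophages under 2500 UMIs the ratio of Ccl2 was -0.85. Ccl7 had -0.16 (-0.21 to -0.10), Ccl12 -0.30 (-0.38 to -0.23) and Ccl8 -0.35 (-0.43 to -0.27). For Ccl12 the sign was the same under each of the 12 alternatives, whereas Ccl7 was higher in 4T1M with a mitochondrial limit of 5% (0.09) and Ccl8 among macrophages with Thbs1 or Mmp12 (0.16). Ccr2 had -0.28 (-0.34 to -0.21), with the same sign under every alternative and a range of -0.34 to -0.17.

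The markers of monocytes moved with the libraries as well. Of the 6 listed, Ly6c2 and Plac8 were higher in 4T1M macrophages, with log2 ratios of 2.90 (2.37 to 3.47) and 1.70 (1.59 to 1.81), whereas Vcan was lower, with -1.83 (-2.06 to -1.60). None of the 6 was at 0, and the list summed to 201 and 400.5 CPM. The 7 macrophage markers did not move together. Mrc1 was at 669 CPM in 4T1P macrophages and 334 CPM in 4T1M macrophages. Lyz2 and Ms4a7 were also lower in 4T1M macrophages, with log2 ratios of -0.62 and -0.37. Fcgr1 was higher, with 0.55 (0.45 to 0.64), and the intervals of Mertk, Cd14 and Adgre1 held 0. The part of a changed mix of monocytes and macrophages in the ratios of the 7 genes was not tested.

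In neutrophils the ratios of CPM had another pattern, on far fewer UMIs. Ccl5 (2.22, 1.40 to 3.16), Ccl7 (1.81, 1.37 to 2.29), Ccr2 (1.81, 1.06 to 2.65) and Ccl2 (0.95, 0.75 to 1.16) had a higher CPM in 4T1M. The intervals of Ccl8, Ccl12 and Ccl24 held 0. In 4T1P the counts behind these values were 13 UMIs of Ccl5, 46 of Ccl7, 16 of Ccr2 and 244 of Ccl2. The share of thinned neutrophils with the gene was higher in 4T1M for Ccl5 but lower for Ccl7, Ccr2 and Ccl2. The intervals of these shares overlapped between the libraries.

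Macrophages were then divided by whether they held any UMI of Thbs1 or Mmp12, of Cx3cr1 or of Lyve1. Thbs1 encodes thrombospondin-1 and Mmp12 the macrophage elastase, Cx3cr1 the receptor of fractalkine, and Lyve1 a hyaluronan receptor of tissue-resident macrophages. Thbs1 or Mmp12 was found in 430 macrophages of 4T1P (53.9%) and 486 of 4T1M (49.8%), Cx3cr1 in 306 (38.3%) and 420 (43.0%), and Lyve1 in 60 (7.52%) and 18 (1.84%). The groups overlap, since 193 and 222 cells held more than 1 of the 3 signs, and they differ in depth: median UMIs were 14240.5 with Thbs1 or Mmp12 and 3155.5 without in 4T1P, and 12133 and 3680 in 4T1M. Values are therefore given as CPM. The log2 ratio with the state called on 1000 UMIs is given for those named whose sign differed. It is also given where the ratio itself, not its log2, moved by over 1.5 times. Smaller moves are given for some genes only.

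**Figure D3:**
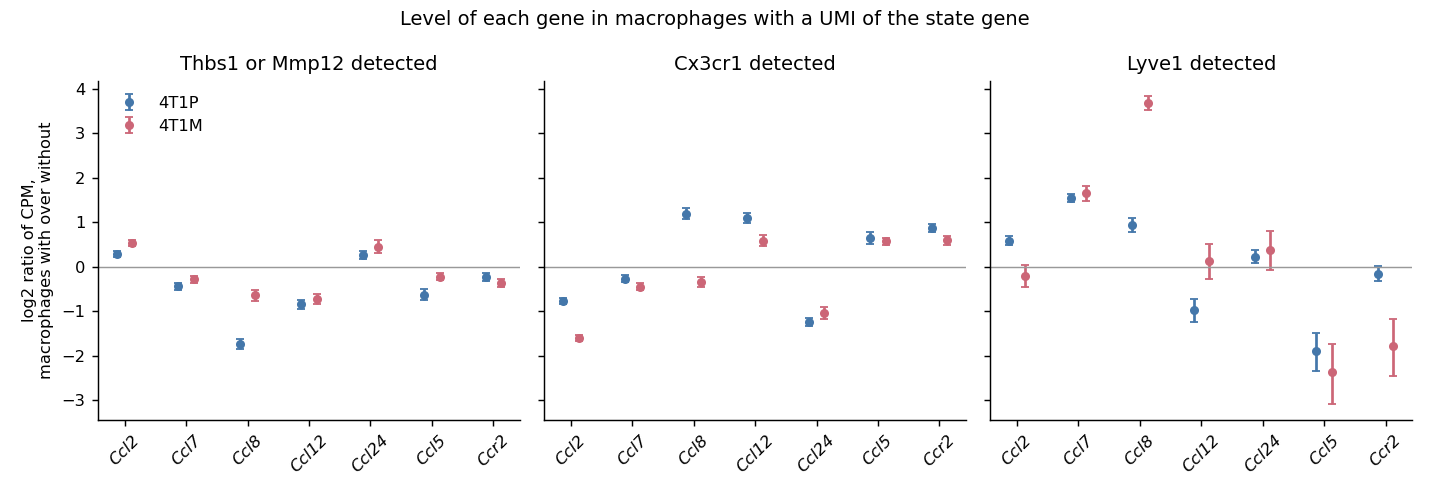
Log2 ratio of CPM in macrophages with a UMI of Thbs1 or Mmp12 (left), Cx3cr1 (middle) or Lyve1 (right) over macrophages without, for each gene in 4T1P (blue) and 4T1M (red), with 95% counting intervals. Ccl2 and Ccl24 lie above 0 on the left and below 0 in the middle in both libraries, whereas Ccl12 and Ccr2 do the opposite, and Ccl7 with Lyve1 lies at 1.55 and 1.65.

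Macrophages with Thbs1 or Mmp12 had more Ccl2 and Ccl24 and less of the other 5 genes than macrophages without, in both libraries. Ccl2 was at 909 CPM against 746 in 4T1P (log2 ratio 0.28, 0.21 to 0.36) and at 982 against 680 in 4T1M (0.53, 0.46 to 0.60). Ccl24 was at 558 against 465 CPM (0.26, 0.17 to 0.36) and at 219 against 161 CPM (0.44, 0.30 to 0.59). Ccl12 was lower by 0.84 and by 0.73 on the log2 scale. With the state called on 1000 UMIs the log2 ratio was 0.52 for Ccl24 in 4T1P and -1.12 for Ccl12 in 4T1M. Ccl8 was at 181 against 602 CPM in 4T1P and at 202 against 315 CPM in 4T1M, although 1 cell held 29.6% and 29.2% of its UMIs in the macrophages with Thbs1 or Mmp12. In 4T1M its log2 ratio was -0.64, and -2.27 with the state called on 1000 UMIs.

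Macrophages with Cx3cr1 showed the opposite for Ccl2, Ccl24, Ccl12 and Ccr2, also with the state called on 1000 UMIs. Ccl12 was at 459 CPM with Cx3cr1 and 216 CPM without in 4T1P (log2 ratio 1.09, 0.973 to 1.202), and at 323 and 216 CPM in 4T1M (0.58, 0.46 to 0.71). On 1000 UMIs the log2 ratio of Ccl12 in 4T1M was 1.16. Ccr2 was at 633 against 347 CPM in 4T1P and at 478 against 315 CPM in 4T1M. Its log2 ratios were 0.86 and 0.60, and 0.62 and 0.18 (0.06 to 0.29 in 4T1M) on 1000 UMIs. Ccl2 was at 648 against 1109 CPM in 4T1P and at 486 against 1480 CPM in 4T1M, a log2 ratio of -1.61 (-1.67 to -1.54) in the latter, which was -0.75 (-0.85 to -0.65) with the state called on 1000 UMIs. Ccl24 was lower with Cx3cr1 by 1.24 and by 1.04 on the log2 scale. Ccl5 was higher with Cx3cr1 (0.65 and 0.57), but with the state called on 1000 UMIs it was lower in 4T1P, at -0.23. In 4T1M it was still higher on 1000 UMIs, at 0.35. Ccl7 was lower with Cx3cr1 (-0.27 and -0.45) and higher on 1000 UMIs (0.29 and 0.40), so no direction can be given for it. Nor can one be given for Ccl8, which was higher with Cx3cr1 in 4T1P (1.19) and lower in 4T1M (-0.34), where it was higher on 1000 UMIs (0.57, and 1.77 in 4T1P).

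Where the signs were combined, the order by Cx3cr1 held for Ccl2 and Ccl24 with and without Thbs1 or Mmp12. Among macrophages with Thbs1 or Mmp12, Ccl2 was at 636 CPM with Cx3cr1 and 1192 CPM without in 4T1P, and at 493 and 1605 CPM in 4T1M. Among those with neither Thbs1 nor Mmp12 it was at 672 and 867 CPM in 4T1P and at 476 and 1157 CPM in 4T1M. Ccl24 was at 307 against 817 CPM and 363 against 630 CPM in 4T1P, and at 163 against 290 CPM and 108 against 285 CPM in 4T1M. The order by Thbs1 or Mmp12 did not hold throughout. In 4T1P macrophages with Cx3cr1, Ccl24 was lower with Thbs1 or Mmp12 (288 to 327 CPM) than without (334 to 393 CPM). In 4T1M macrophages without Cx3cr1 it was at 290 and 285 CPM. For Ccl2 the order held in macrophages without Cx3cr1. With Cx3cr1, Ccl2 was at 636 CPM with Thbs1 or Mmp12 (608 to 664) and 672 CPM without (633 to 713) in 4T1P. In 4T1M these levels were 493 and 476 CPM. Ccl12 was lower with Thbs1 or Mmp12 in all 4 of these settings, for example at 142 against 431 CPM in 4T1P macrophages without Cx3cr1.

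Macrophages with Lyve1 had the most Ccl7. It was at 1706 CPM in 4T1P (1612 to 1805, 60 cells) and 1829 CPM in 4T1M (1636 to 2039, 18 cells), against 584 and 582 CPM without Lyve1, which gives log2 ratios of 1.55 (1.45 to 1.64) and 1.65 (1.49 to 1.81). Without the cell of each library that held the most Ccl7 in this state the ratios were 1.47 and 1.40. Ccl5 was lower with Lyve1, at 67.7 against 251 CPM and at 112 against 580 CPM, although 1 cell held 64.6% and 60.0% of its 48 and 20 UMIs. Its log2 ratio in 4T1P was -1.89, and -1.12 on 1000 UMIs. Ccl8 was at 556 and 2534 CPM with Lyve1, but 1 cell held 44.7% of its UMIs there in 4T1P and 48.8% in 4T1M. Without that cell the log2 ratio of Ccl8 was 0.14 (-0.06 to 0.34) in 4T1P and 2.87 (2.67 to 3.07) in 4T1M. With the state called on 1000 UMIs it was 1.66 in 4T1P and reversed in 4T1M, at -0.26 (-2.54 to 1.29) on 3 cells. Of the 60 and 18 cells, 31 and 3 still held Lyve1 on 1000 UMIs.

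With and without Thbs1 or Mmp12, and with and without Cx3cr1, the difference between the libraries kept its direction for Ccl24, Ccl5 and Ccr2. Ccl24 was lower in 4T1M by 1.35 on the log2 scale in macrophages with Thbs1 or Mmp12 and by 1.53 in those without, and by 1.22 with Cx3cr1 and 1.41 without. The log2 ratio of Ccl5 was 1.41 with Thbs1 or Mmp12 and 1.005 without, and 1.21 with Cx3cr1 and 1.29 without. With the states called on 1000 UMIs these ratios lay between -1.46 and -1.09 for Ccl24 and between 1.18 and 1.76 for Ccl5. Ccl2 was lower in 4T1M with Cx3cr1 (-0.42, -0.49 to -0.34) and higher without (0.42, 0.36 to 0.47), but with the state called on 1000 UMIs both ratios were near 0, at 0.02 (-0.13 to 0.17) and 0.06 (0.01 to 0.10). Ccl8 was lower with Cx3cr1 (-0.92, -1.03 to -0.82) and higher without (0.61, 0.47 to 0.75), and on 1000 UMIs the latter was -0.08 (-0.17 to 0.02) while the former was -1.29 (-1.44 to -1.13). The split of Ccl2 and Ccl8 by Cx3cr1 thus depended on how the state was called.

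The genes also differed in how evenly macrophages held them. The 10% of macrophages with the most UMIs of a gene, 80 cells in 4T1P and 98 in 4T1M, held 90.5% and 95.4% of the UMIs of Ccl8, and 46.3% and 45.3% of those of Ccr2. For comparison, those cells held 11.7% and 13.0% of all UMIs for Ccl8, and 18.2% and 18.1% for Ccr2. The other ligands lay between 62.5% and 80.2%. Ccl5 was the ligand whose share moved most between the libraries, from 80.2% in 4T1P to 63.7% in 4T1M, and macrophages with 10 or more of its UMIs numbered 61 and 175.

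**Figure D4:**
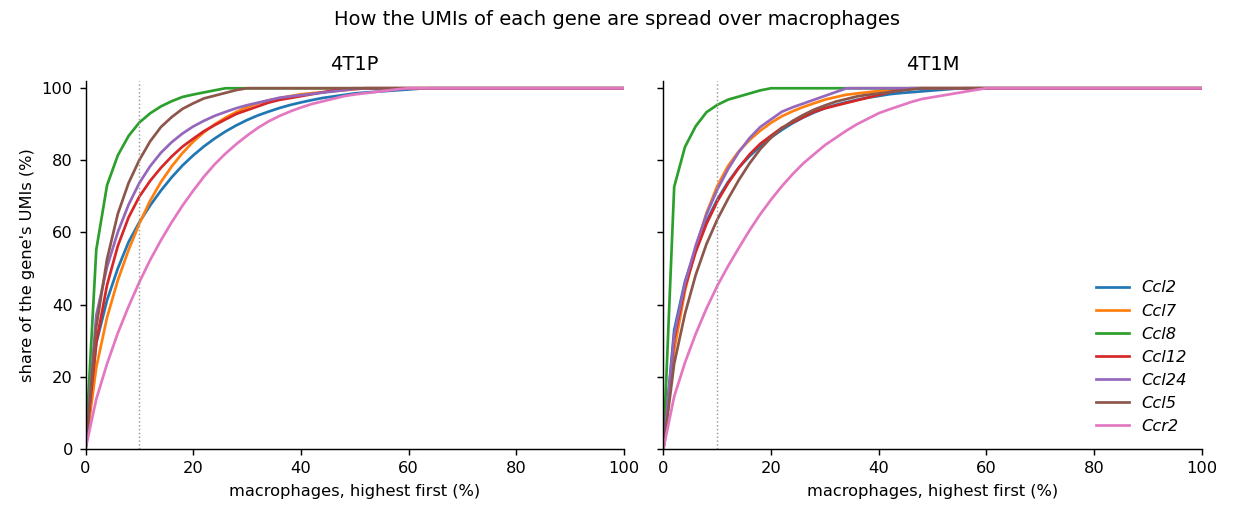
Share of each gene's UMIs (%) held by macrophages ranked from the cell with the most UMIs of that gene, against the share of macrophages (%), in 4T1P (left) and 4T1M (right). The dotted line marks the top 10% of cells, where Ccl8 has reached 90.5% and 95.4% and Ccr2 46.3% and 45.3%.

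Single cells could be very rich in a ligand. The highest macrophage held 340 UMIs of Ccl2 in 4T1P and 408 in 4T1M, 325 and 352 of Ccl8, and 139 and 179 of Ccl7, whereas the median among cells with any UMI was 6 and 5 for Ccl2, 3 and 2 for Ccl8, and 6 and 4 for Ccl7. For Ccr2 the highest cell held 54 and 46 UMIs. The 10 highest cells held 45.3% and 60.5% of the Ccl8 UMIs, so that sums of Ccl8 rest on few cells in both libraries, and without them its log2 ratio was -0.82.

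Ccl2 and Ccl7 were found in the same macrophages more than any other pair of members by the ratio of shares in 4T1P and 4T1M. Among macrophages thinned to 1000 UMIs, Ccl7 was present in 48.9% of the 266 with Ccl2 in 4T1P (42.7% to 55.1%) and in 19.2% of those without (15.8% to 22.9%). In 4T1M the shares were 44.8% of 270 (38.8% to 51.0%) and 12.9% (10.4% to 15.6%). Ccl8 was present in 22.0% of the 227 with Ccl7 and 9.72% of those without in 4T1P, and in 13.5% of 207 and 6.15% in 4T1M. Ccl12 was also more frequent with Ccl7 than without, at 30.8% against 18.0% and at 28.0% against 15.3%.

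**Figure D5:**
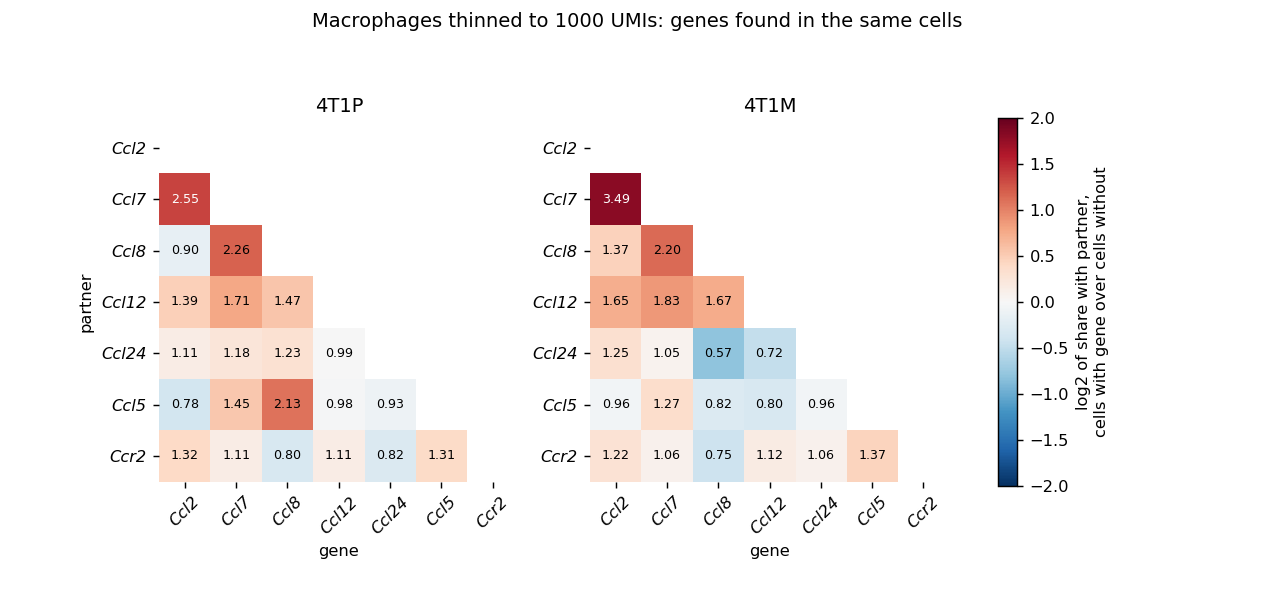
Share of macrophages with a partner gene among cells with a gene, divided by the share among cells without it, after thinning to 1000 UMIs, in 4T1P (left) and 4T1M (right). Colour gives the log2 of that ratio and the printed value the ratio. Ccl2 with Ccl7 stands at 2.55 and 3.49 and Ccl7 with Ccl8 at 2.26 and 2.20, while Ccl24 with Ccl5 stands at 0.93 and 0.96.

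For Ccl24 the ratio of shares with the other members lay between 0.57 and 1.25 in both libraries. It was present in 24.4% of cells with Ccl2 and 21.9% of cells without in 4T1P, and in 16.3% and 13.0% in 4T1M, with overlapping intervals. Ccr2 was more frequent in cells with Ccl5, at 38.7% (28.8% to 49.4%) against 29.6% (26.2% to 33.2%) in 4T1P and at 34.0% (27.5% to 41.0%) against 24.9% (21.8% to 28.2%) in 4T1M. The intervals overlapped in both libraries. With Ccl2 the ratio of shares of Ccr2 was similar, at 1.32 in 4T1P and 1.22 in 4T1M, beside 1.31 and 1.37 with Ccl5. Of the 6 ligands, 0 were present in 27.5% of thinned 4T1P macrophages and 34.5% of 4T1M macrophages, 1 in 33.7% and 33.4%, and 2 or more in the remainder. A single 4T1P cell held all 6.

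Genes with the most similar pattern were found for each member by the Pearson correlation over macrophages of log2(1 + UMIs per 10000) among 8279 genes, ranked by the lower of the values in the libraries. The cells share a library and vary in depth, so the values are descriptions. Ccl7 was nearest to Ccl2 and Ccl2 to Ccl7, at 0.51 over 798 cells of 4T1P and 0.48 over 976 cells of 4T1M. Next for Ccl2 were F13a1 (0.33 in both libraries) and Emp1 (0.31 and 0.35), and for Ccl7 Selenop (0.36 and 0.30), which encodes selenoprotein P, and Mrc1 (0.34 and 0.28). Selenop was also nearest to Ccl8 (0.41 and 0.39), followed by Wfdc17 and Fcgrt.

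Ccl5 was nearest to Rsad2 (0.44 and 0.49), Isg15 (0.42 and 0.40) and Ifih1 (0.39 and 0.48), which are interferon-stimulated genes with antiviral roles. These 3 genes were higher in 4T1M macrophages too, with log2 ratios of 1.44 for Rsad2, 1.18 for Isg15 and 0.54 for Ifih1. Ccl24 was nearest to F10 (0.27 and 0.21), the gene of coagulation factor X, Vcan (0.20 in both) and Cxcl3 (0.25 and 0.19), of which F10 and Vcan were lower in 4T1M (-0.19 and -1.83) and Cxcl3 was higher (0.24). Ccl12 was nearest to the complement genes C1qc, C1qa and C1qb (0.27 to 0.36), which the rule for macrophages used. Ccr2 was nearest to Slc38a1, Tgfbi and Kdm6b (0.29 to 0.36). No member other than Ccl2 and Ccl7 was among the 3 nearest genes of another member.

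The other CC ligands and receptors give the setting of the family. Of 15 other ligands, 7 had at least 10 UMIs in macrophages and 4 reached 100 CPM. Ccl3, which encodes MIP-1 alpha, was at 902 CPM in 4T1P and 1516 CPM in 4T1M (log2 ratio 0.75), and Ccl4, of MIP-1 beta, at 4322 and 6355 CPM (0.56). Ccl6 was at 1906 and 1218 CPM (-0.65) and Ccl9 at 684 and 436 CPM (-0.65). By a log2 ratio of 1 or more, 1 of the 7 was higher, Ccl17, on 2 and 61 UMIs, and 0 were lower, with a median of 0.56. Neutrophils held more Ccl3 than macrophages did, at 4715 and 7310 CPM.

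Of 14 other receptors, 6 had at least 10 UMIs in macrophages, with 0 higher and 0 lower by a log2 ratio of 1 and a median of 0.32. Ccr1 was at 322 and 354 CPM in macrophages (0.13) and Ccrl2, an atypical receptor, at 943 and 1331 CPM (0.50). Ccr3, the receptor of CCL24, had 1 UMI in 4T1P macrophages and 4 in 4T1M macrophages, and in neutrophils 5 and 18. Ccr1 was higher in neutrophils than in macrophages, at 923 and 997 CPM.

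Depth divided the macrophages as well. The 211 and 249 macrophages under 2500 UMIs held 1085 CPM of Ccl8 in 4T1P and 247 CPM in 4T1M, those of 2500 to 10000 UMIs held 488 and 289 CPM, and those of 10000 UMIs or more held 249 and 233 CPM. For Ccl5 the shallow macrophages had 192 and 576 CPM and the deep ones 242 and 592 CPM, and for Ccl24 they had 453 and 209 CPM and 526 and 178 CPM. Ccl24 and Ccl5 thus differed between the libraries in the same direction in shallow and deep cells. The log2 ratio of Ccl8 was -2.13 in the cells under 2500 UMIs, -0.75 from 2500 to 10000 UMIs and -0.10 (-0.19 to -0.001) in the deep ones. Ccl7 and Ccl2 varied with depth too. In the same order the log2 ratio of Ccl7 was -1.09 (-1.37 to -0.82), -0.42 and -0.07. That of Ccl2 was -0.85 (-1.16 to -0.54), 0.20 (0.09 to 0.31) and -0.01 (-0.06 to 0.05). Ccl12 (-0.74, -0.53 and -0.23) and Ccr2 (-0.45, -0.32 and -0.26) were lower in 4T1M at each depth.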

How the data were processed

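Single-cell RNA sequencing of GR1+ tumor cells gave 1 library for 4T1P and 1 for 4T1M. The authors ran Cell Ranger on mm10 and deposited raw UMI counts for each gene and barcode, not normalized. The submitters' processing notes and the matrix header name version 4.0.0, and the study's methods name another. The sample records give 5 pooled mice, and a figure legend of the study gives fewer.

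Barcodes with 500 to 5000 genes and at most 10% mitochondrial UMIs were retained and classed by the S100a8, S100a9 and marker percentages given above, with no clustering. Barcodes outside both classes were called mixed where both signatures were present, and T/NK-marked or B-marked with at least 3 UMIs of Cd3d, Cd3e, Cd3g, Trbc1, Trbc2 and Nkg7 or of Cd79a, Cd79b and Ms4a1. UMIs were summed per class and library. CPM have exact Poisson, shares exact binomial (Clopper-Pearson) and log2 ratios exact conditional intervals, at 95%. These cover counting error only. Genes needed 10 UMIs in both libraries together to be counted among those compared. Cells were thinned to 1000 UMIs with seed 11. The genes named are the 7 members, the CC ligands and receptors of at least 100 CPM in macrophages, the 3 genes nearest to each member among those detected in at least 5% of macrophages, and markers beside a result. Ccl17, Ccr3 and the receptors or ligands under 100 CPM that are named were chosen after their values were seen. A further receptor of that list is not reported here. The members, lists and markers were chosen with earlier results of these data known.

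Doublets were left in for the values reported. Scrublet (scanpy 1.11.5) called 0 barcodes in both libraries at its automatic threshold, so 69 and 200 barcodes of highest score, at 0.8% per 1000 barcodes, were removed in an alternative. TMM scaling used edgeR 4.0.16 in R 4.3.3, for scaling only. Python 3.11.15 with scipy 1.17.1 was used. Ratios and intervals were tested on simulated macrophage sums drawn as Poisson counts. These leave out the spread between cells, so the test bears on the computation and on counting error only. The retained cells held 12948585 UMIs in 4T1P and 19302483 in 4T1M, and a count of 0 in macrophages allows up to 3 UMIs, 0.342 and 0.321 CPM. Gene positions and sequences come from GENCODE vM21 on GRCm38, in which all 7 identifiers matched.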

Additional observations from a re-analysis of the deposited data

Results flagged for a closer look

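By CPM, Ccl7 and Ccr2 differed in opposite directions in the macrophages and the neutrophils of these libraries. For Ccl7 the log2 ratio of 4T1M over 4T1P was -0.16 in macrophages and 1.81 in neutrophils (425 UMIs in 4T1M, 124 of them in 1 cell). For Ccr2 the log2 ratio was -0.28 in macrophages and 1.81 in neutrophils (147 UMIs in 4T1M, 54.4% of them in the 10 highest cells). By share of thinned cells, both genes were lower in 4T1M in both classes. Ccl7 was in 29.4% of 4T1P and 22.0% of 4T1M macrophages, and in 2.12% and 1.66% of neutrophils. Ccr2 was in 30.7% and 26.8% of macrophages, and in 1.14% and 0.832% of neutrophils. For both genes the neutrophil intervals of the libraries overlapped. The difference between the classes was not tested.

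Barcodes outside the filter also held the 7 genes. Summed over them, the level was 2105 CPM (2067 to 2144) in 133 barcodes of 4T1P and 1671 CPM (1614 to 1729) in 48 barcodes of 4T1M with more than 5000 genes and at most 10% mitochondrial UMIs, beside 3459 and 3187 CPM in retained macrophages. In barcodes above 10% mitochondrial UMIs it was 1194 CPM (1156 to 1233) in 775 of 4T1P and 628 CPM (598 to 660) in 903 of 4T1M.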

How the results depend on the processing

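Ccl24 stayed lower and Ccl5 stayed higher in 4T1M macrophages under all 12 alternative settings, at -1.57 to -1.14 and at 0.94 to 1.43 on the log2 scale, and Ccl12 and Ccr2 stayed lower, whereas the sign of Ccl2, Ccl7 and Ccl8 depended on the setting. With a mitochondrial limit of 5% the log2 ratios were 0.13 for Ccl2, 0.091 for Ccl7 (reversed), -0.39 for Ccl12, -1.57 for Ccl24 and 0.94 for Ccl5. With macrophage markers at 1% or more they were -0.46 for Ccl2, -0.25 for Ccl7 and 1.36 for Ccl5, and without macrophages holding a T/NK or B cell UMI 0.070 for Ccl2 and -0.23 for Ccl12. With S100a8 and S100a9 under 0.5%, Ccl8 was at -0.54. With each cell given the same weight they were -0.12 for Ccl2, -0.44 for Ccl7, -0.997 for Ccl8, -0.52 for Ccl12 and -1.25 for Ccl24. The next settings were chosen after seeing the data. With Thbs1 or Mmp12 they were 0.11 for Ccl2, 0.16 for Ccl8 (reversed), 1.41 for Ccl5 and -0.34 for Ccr2, and without either -0.13 for Ccl2, -0.27 for Ccl7, -0.94 for Ccl8, -0.41 for Ccl12, -1.53 for Ccl24, 1.005 for Ccl5 and -0.21 for Ccr2. Macrophages of at least 2500 UMIs gave -0.21 for Ccl8. With no upper limit on genes, Ccl8 was at -0.12, Ccl12 at -0.42, Ccl24 at -1.14 and Ccr2 at -0.17. Without the 10 cells with the most UMIs of the gene, Ccl8 was at -0.82, Ccl24 at -1.26 and Ccl5 at 1.43. The cause was not tested for any of these. With states called on 1000 UMIs, 7 of 39 ratios stayed within their interval, 26 moved with the same sign or from an interval that held 0, and 6 reversed: -0.57 for Ccl24 with Lyve1 in 4T1P, -0.23 for Ccl5 and 0.29 for Ccl7 with Cx3cr1 in 4T1P, 0.40 for Ccl7 and 0.57 for Ccl8 with Cx3cr1 in 4T1M, and -0.26 for Ccl8 with Lyve1 in 4T1M, where 3 cells remained. Another 3 could not be computed. Without the cell of the state with the most UMIs, 1 of 42 reversed, Ccl24 with Lyve1 in 4T1P (-0.78). Of 28 library ratios within a state called on 1000 UMIs, 4 reversed: 0.054 for Ccl7 and -0.81 for Ccl8 with Thbs1 or Mmp12, 0.020 for Ccl2 with Cx3cr1 and -0.079 for Ccl8 without Cx3cr1. Over all genes, 814 passed a log2 ratio of 1 in either direction, 808 with TMM scaling and 4696 without the filter on low counts. No paired analysis was possible because each condition had 1 library, and no replicate could be left out. With 1 pool of mice per condition, library and condition cannot be told apart.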
